A study of Mus musculus with 4 samples.

Results

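Malat1, Neat1, Meg3, Kcnq1ot1 and Miat are long noncoding RNAs (lncRNAs) that stay largely in the nucleus of mammalian cells. Their rows were examined here in RNA of purified ependymal multicilia, where they serve as a gauge of nuclear RNA in the preparations. They were chosen by gene symbol, with their values in these libraries already known, so all their levels and fold changes are given as a description, without a test. Of the 5 symbols, 3 had rows in the table: Malat1 with 2 transcript rows, Neat1 with 2 and Kcnq1ot1 with 1, which makes 5 of 12515 rows and 3 of 10213 gene symbols. Meg3 (chr12:109541001-109571726, plus strand, GRCm38) and Miat (chr5:112213228-112229395, minus strand) had no row under any of their 11 and 6 transcripts in the GENCODE M21 annotation. Since every row of the table was above 0 in both Ctrl-i libraries, a gene with no row cannot be read as a gene at 0.

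The RNA came from cultured mouse ependymal cells (mEPCs), the multiciliated cells that line the brain ventricles. They were grown from the telencephalon of newborn C57BL/6 pups of either sex, and their multicilia were purified at day 10 of serum starvation. The 2 Fmr-i1 libraries came from cells transfected every few days with 40 pmol of an siRNA against Fmr1, the gene of the RNA-binding protein Fmrp, and the 2 Ctrl-i libraries from cells given the same amount of a control siRNA. Each group had 1 library in Exp.1 and 1 in Exp.2, and all libraries shared the strain, the culture and poly(A) selection of the RNA. By the study's methods the multicilia were sheared off together with the apical cortex of the cell, so the preparations were not bare axonemes. They were then purified on an iodixanol gradient. From immunoblots, the study describes them as mostly lacking the cytosolic protein Gapdh and the nuclear protein Lamin B1. Cultures came from several pups, neurons and oligodendrocytes were shaken off, and no library of whole mEPCs or of nuclei was analysed here, so a level cannot be given as a share of the amount in the cell.

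Malat1 is one of the most abundant RNAs of the mammalian nucleus and gathers in nuclear speckles, bodies rich in splicing factors. Neat1 is the scaffold of paraspeckles, which form around its long isoform, whereas its short isoform ends at an internal poly(A) site. Kcnq1ot1 is a very long, unspliced RNA made from the paternal allele, antisense to Kcnq1, and acts in imprinted silencing of its neighbours. Meg3 is a maternally expressed lncRNA of the Dlk1 region, and Miat is a nuclear lncRNA known from neurons and retina.

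The ends of Malat1 and of long Neat1 are not made by ordinary polyadenylation. RNase P cuts both RNAs beside an A-rich tract, and that tract folds back onto U-rich motifs into a triple helix that stands in for a poly(A) tail. As the libraries were poly(A) selected, these 3' ends are shown first, 5' to 3' with T for U, from the GENCODE M21 transcripts on GRCm38. Capitals mark the U-rich motifs and the A-rich tract. The Malat1-201 window is chr19:5795962-5796077 and the Neat1-201 window is chr19:5824708-5824807, both on the minus strand of lincRNA exons.
Malat1-201: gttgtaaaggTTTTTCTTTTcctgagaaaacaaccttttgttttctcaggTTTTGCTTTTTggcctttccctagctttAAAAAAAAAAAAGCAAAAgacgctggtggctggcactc
Neat1-201: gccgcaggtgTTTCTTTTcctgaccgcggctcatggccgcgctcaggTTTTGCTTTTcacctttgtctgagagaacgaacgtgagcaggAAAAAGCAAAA

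The tract was 18 bases long in Malat1-201, with a run of 12 A, and 11 bases long in Neat1-201, with a run of 5 A. In Neat1-201 the annotated transcript ends on the last base of the tract, whereas Malat1-201 is annotated for 292 bases beyond it. The search took an A-rich tract with the letters AAAAGCAAAA or a longer first A run, preceded within 150 bases by at least 2 U-rich motifs with the letters TTNCTTTT or longer T runs, on the transcript strand and without overlap. It matched 11 of 141767 annotated transcripts, or 0.00776%, in 8 genes, while the A-rich tract alone was in 1.12%. A match is a description of letters and not of a fold.

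The other annotated ends carry the common poly(A) signal AATAAA, in capitals in the last 50 bases of Malat1-201 (chr19:5795690-5795739), of the short isoform Neat1-202 (chr19:5842307-5842356) and of Kcnq1ot1-201 (chr7:143203458-143203507), all on the minus strand. They are shown because oligo(dT) capture depends on the 3' end of an RNA.
Malat1-201: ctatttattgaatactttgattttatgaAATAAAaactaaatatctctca
Neat1-202: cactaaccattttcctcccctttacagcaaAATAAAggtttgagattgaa
Kcnq1ot1-201: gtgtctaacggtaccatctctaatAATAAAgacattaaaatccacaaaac

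The signal began 22, 20 and 26 bases before the end of Malat1-201, Neat1-202 and Kcnq1ot1-201. Neither Malat1-203 nor Neat1-201 had AATAAA in its last 40 bases, a window that held it in 59.2% of the 12483 rows with a GENCODE transcript. Letters missing from this window say nothing about other forms of the signal.

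Within each gene, one row stands for an unspliced and one for a spliced transcript, and the exons of the spliced form are contained letter for letter in the unspliced form. Malat1-203 (ENSMUST00000173499, chr19:5801916-5802671) joins exons of 434 and 51 bases across an intron of 271 bases. Neat1-202 (ENSMUST00000174287, chr19:5842307-5845476) joins exons of 552 and 2452 bases across an intron of 166 bases. Both introns begin with GT and end with AG. Only a read over the junction belongs to the spliced form alone, and the 20 bases on either side are shown for that reason, with the second exon in capitals.
Malat1-203: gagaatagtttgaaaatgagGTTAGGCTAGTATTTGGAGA
Neat1-202: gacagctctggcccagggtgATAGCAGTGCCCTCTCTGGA

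**Figure D1:**
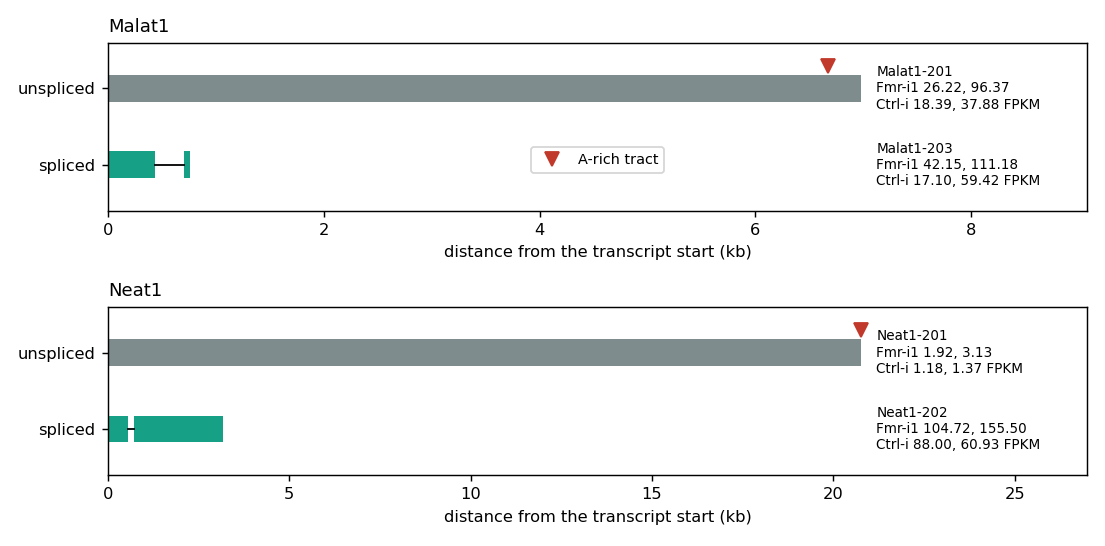
Malat1 and Neat1 transcripts with rows in the table, drawn to scale by distance from the transcript start in kb, with exons as bars, the intron as a line and the A-rich tract as a triangle. The text beside each transcript gives its FPKM in Exp.1 and Exp.2. The spliced forms lie at the start of the gene, and the tract lies near or at the end of the unspliced forms.

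The split of reads between such overlapping rows rests on the authors' counting, so values of single rows are uncertain. The sum of FPKM over a gene depends on that split as well, since a fragment weighs more in a shorter row. Malat1-203 made up 48.2% to 61.6% of the summed Malat1 FPKM, but 6.07% to 10.0% once rows were multiplied by transcript length. Values are FPKM, fragments per kilobase of transcript, scaled to the size of the library. No read counts were given, so depth is unknown and no counting error can be stated. In these bulk preparations, fewer nuclei or cell fragments and less RNA in each cannot be told apart.

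The targeted gene Fmr1 stood at 0 FPKM with Fmr-i1 in either experiment, against 0.42 and 8.13 FPKM in the Ctrl-i libraries of Exp.1 and Exp.2. A listed 0 can be a failed estimate. Fmr1 was among 162 rows at 0 in both Fmr-i1 libraries, while no row was at 0 in a single Fmr-i1 library or in a Ctrl-i library. The extent of the knockdown is therefore not read from it. The share of the mitochondrial rRNAs mt-Rnr1 and mt-Rnr2 in all FPKM was 28.4% and 23.0% with Fmr-i1, against 27.4% and 37.6% with Ctrl-i. Markers of ependymal cells were present, 9 of 9 listed, and summed to 1462 and 1305 FPKM with Fmr-i1, against 1114 and 1530 with Ctrl-i. All 5 astrocyte markers were present too, with 1726 and 1729 FPKM with Fmr-i1, against 2582 and 2011 with Ctrl-i, of which Gfap made up most. Of the neuron markers, 4 of 13 had rows, and the sums were 16.6 and 19.7 FPKM with Fmr-i1, against 23.7 and 7.64 with Ctrl-i. The oligodendrocyte list had 3 of 5, with sums of 74.94 and 77.85 FPKM with Fmr-i1, against 67.83 and 83.13 with Ctrl-i, mostly from Cnp. The microglia list had 0 of 5. The part of these cell types in the lncRNA levels was not tested.

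Malat1 and Neat1 were both readily measured in the multicilia preparations, whereas Kcnq1ot1 was near the lower limit of the table. Ranked by mean FPKM over the 4 libraries, Neat1 was the 6th and Malat1 the 7th of 338 lncRNA genes with rows, after Gm10076, Gm45836, Gas5, AC121965.1 and 1810058I24Rik. Within single libraries Neat1 ranked 5th and 3rd with Fmr-i1, against 7th and 10th with Ctrl-i. Malat1 ranked 10th and 2nd with Fmr-i1, against 20th and 2nd with Ctrl-i, so its place depended on the experiment. Kcnq1ot1 was the last of the 338 by its mean. Together the 5 rows held 0.0310% and 0.0680% of all FPKM with Fmr-i1, against 0.0214% and 0.0271% with Ctrl-i, each pair given as Exp.1 and Exp.2.

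Malat1 was higher in Exp.2 than in Exp.1 whichever siRNA was used. The summed FPKM of its 2 rows was 68.4 (Exp.1) and 208 (Exp.2) with Fmr-i1, against 35.5 and 97.3 with Ctrl-i. Fmr-i1 was above Ctrl-i within each experiment, by 1.93-fold in Exp.1 and 2.13-fold in Exp.2. The groups overlapped all the same, because the Ctrl-i library of Exp.2 lay above the Fmr-i1 library of Exp.1. The ratio of Exp.2 to Exp.1 was 3.04 in Fmr-i1 and 2.74 in Ctrl-i, larger than the ratio between the groups in either experiment. The fitted log2 fold change of the sum, on the log2(FPKM+1) scale with the experiment as a block, was 1.01 (SE 0.30, n = 2 per group). The SE depended on the block, and without it was 0.62 for the sum, 0.68 for Malat1-201 and 0.71 for Malat1-203.

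The unspliced row, Malat1-201 (ENSMUST00000172812, chr19:5795690-5802672, minus strand, 1 exon of 6983 bases), covers the whole gene. It had 26.2 and 96.4 FPKM with Fmr-i1, against 18.4 and 37.9 with Ctrl-i, a log2 fold change of 0.91 (SE 0.37). Without the Fmr-i1 library of Exp.2 that value was -0.013. Here too the high Exp.2 library of Ctrl-i lay above the low Exp.1 library of Fmr-i1. The spliced row, Malat1-203 (485 bases in 2 exons near the start of the gene), had 42.2 and 111 FPKM with Fmr-i1, against 17.1 and 59.4 with Ctrl-i, with a log2 fold change of 1.07 (SE 0.32) that ran from 0.20 without the Ctrl-i library of Exp.1 to 1.94 without that of Exp.2. Its groups overlapped in the same way, and the Fmr-i1 excess was larger in Exp.1 (2.46-fold) than in Exp.2 (1.87-fold), the reverse of Malat1-201 (1.43-fold and 2.54-fold).

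Among all rows that averaged at least 1 FPKM, 1.75% were at least 2-fold higher in Exp.2 than in Exp.1 in both groups (208 of 11898 rows). Both Malat1 rows were among them and neither Neat1 row was. Of the 21 rows of 20 other genes within 250 kb of Malat1 and Neat1, 0 were.

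Both Fmr-i1 libraries held more Neat1 than either Ctrl-i library, with most of the difference in Exp.2. Its summed FPKM was 107 and 159 with Fmr-i1, against 89.2 and 62.3 with Ctrl-i, a ratio of 1.20 in Exp.1 and 2.55 in Exp.2. The experiments moved in opposite directions in the 2 groups, since Exp.2 was at 1.49 times Exp.1 in Fmr-i1 and at 0.699 times Exp.1 in Ctrl-i. The log2 fold change of the sum was 0.79 (SE 0.35, n = 2 per group). Of all gene sums that averaged at least 1 FPKM, 27.2% likewise had both Fmr-i1 libraries above both Ctrl-i libraries (2663 of 9804), so nothing about Neat1 in particular is read from the separation.

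Nearly all of the Neat1 signal was listed under the short form. As the libraries were poly(A) selected and the long form lacks an ordinary poly(A) tail, this cannot be read as the balance of the forms. Reads in the shared start of the gene cannot be assigned to either form with certainty. Neat1-202 (3004 bases, sharing the start of the gene) had 105 and 156 FPKM with Fmr-i1, against 88.0 and 60.9 with Ctrl-i, with a log2 fold change of 0.79 (SE 0.37). It stood above at least 92.0% of all rows in every library. The long form that builds paraspeckles, Neat1-201 (ENSMUST00000173672, chr19:5824708-5845478, minus strand, 1 exon of 20771 bases), had 1.92 and 3.13 FPKM with Fmr-i1, against 1.18 and 1.37 with Ctrl-i, with a log2 fold change of 0.61 (SE 0.49). The groups of both rows were apart, with the Fmr-i1 library of Exp.2 the highest. Among single rows, 25.7% had both Fmr-i1 libraries above both Ctrl-i libraries (3058 of 11898).

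Under the same limit of poly(A) selection, the ratio of short to long Neat1 in FPKM was 54.5 and 49.7 with Fmr-i1, against 74.6 and 44.5 with Ctrl-i. Weighted by transcript length, which approximates the share of fragments, the short form held 88.7% and 87.8% with Fmr-i1, against 91.5% and 86.5% with Ctrl-i. The Fmr-i1 ratios lay between those of the Ctrl-i libraries. In Malat1 the balance ran the other way by fragments. The spliced row held 10.0% and 7.42% of the length-weighted signal in Fmr-i1 and 6.07% and 9.82% in Ctrl-i, again with overlapping groups. The weights were annotated lengths, whereas the lengths listed beside the rows were 756 bases for Malat1-203 and 3170 for Neat1-202. Which length the FPKM used is unknown, so these shares are approximate.

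Kcnq1ot1-201 (ENSMUST00000185789, chr7:143203458-143296549, minus strand, 1 exon of 93092 bases, class antisense) was listed at 0.01 and 0.06 FPKM with Fmr-i1, against 0.04 and 0.04 with Ctrl-i. With values given to 2 decimals, these are a few steps of the last digit, and no fold change is given. The row was under the minimum mean of 1 FPKM and was not fitted. The length listed beside it was 84395 bases, shorter than the annotated transcript. By the study's methods the library kit was directional, but the sources used here do not say whether strand was used in counting. Whether reads of Kcnq1ot1 were kept apart from those of Kcnq1 on the other strand is therefore unknown.

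**Figure D2:**
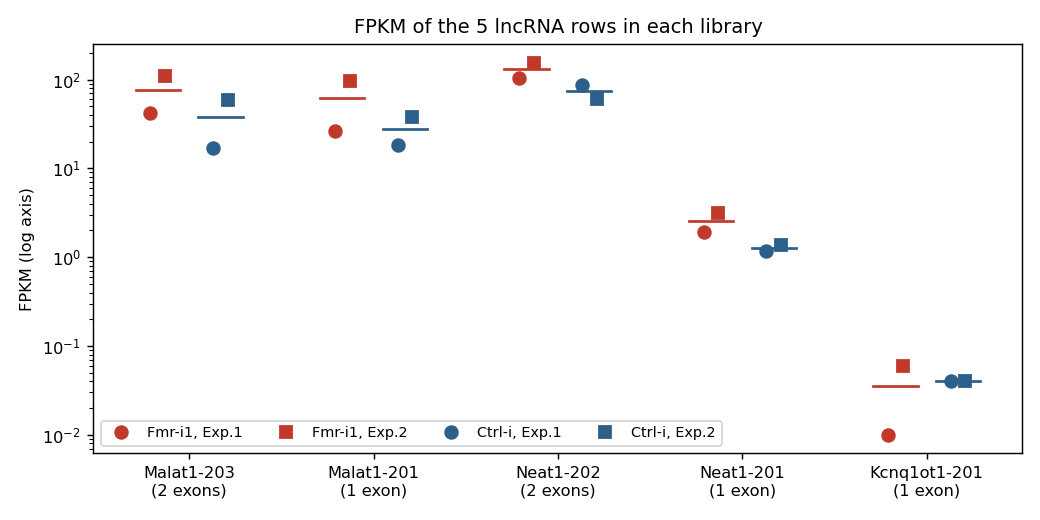
FPKM on a log axis of the 5 lncRNA rows, with Fmr-i1 in red left of Ctrl-i in blue, circles for Exp.1, squares for Exp.2 and a line at the mean of the 2 libraries of a group. In both groups the Malat1 squares lie above the circles, Neat1-202 and Neat1-201 have both red points above both blue points, and Kcnq1ot1-201 lies at or under 0.06 FPKM.

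Malat1 and Neat1 lie 22035 bases apart on chromosome 19 but differed in their order over the libraries. The ratio of the Malat1 sum to the Neat1 sum was 0.641 and 1.31 with Fmr-i1, against 0.398 and 1.56 with Ctrl-i, so that Neat1 was the higher of the pair in both Exp.1 libraries and Malat1 in both Exp.2 libraries. Among the 21 neighbouring rows, 2 had both Fmr-i1 libraries above both Ctrl-i libraries (Pola2 and Mrpl49), 0 had them below and 19 overlapped, while over all rows 25.7% were above and 11.2% below. The 20 neighbouring rows that were fitted had a median log2 fold change of 0.16, equal to that of all rows to 2 decimals.

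The sum over all 5 rows was 175 and 366 FPKM with Fmr-i1, against 125 and 160 with Ctrl-i. The log2 ratio was 0.49 in Exp.1 and 1.20 in Exp.2, with a mean of 0.84. The groups did not overlap as deposited, and 1 library, Fmr-i1 of Exp.2, stood well above the other 3. They overlapped after median scaling (168 and 336 with Fmr-i1, against 129 and 178 with Ctrl-i) and after rescaling without mitochondrial RNAs. As deposited, the log2 ratio was 0.31 without the Fmr-i1 library of Exp.2 and 1.38 without the Fmr-i1 library of Exp.1.

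In the comparison of all rows by limma with Benjamini-Hochberg adjustment, 0.00% passed an adjusted p of 0.05 (0 of 11898 rows), and 0 of the 4 fitted Malat1 and Neat1 rows did. Without adjustment, 598 rows had a p under 0.05. The median log2 fold change of all rows was 0.16 as deposited and -0.01 after dividing each library by its median, so 0.16 is the level against which the fold changes here are read. After that scaling the Malat1 sum had a log2 fold change of 0.81 and the Neat1 sum 0.60. With 2 libraries against 2, an exact permutation test of a single value cannot go below p = 0.333. The study calls the experiments independent, and the fit measures only the spread between these libraries. The SEs were moderated toward a variance trend over all rows or gene sums, so they are not the spread of a single gene alone.

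**Figure D3:**
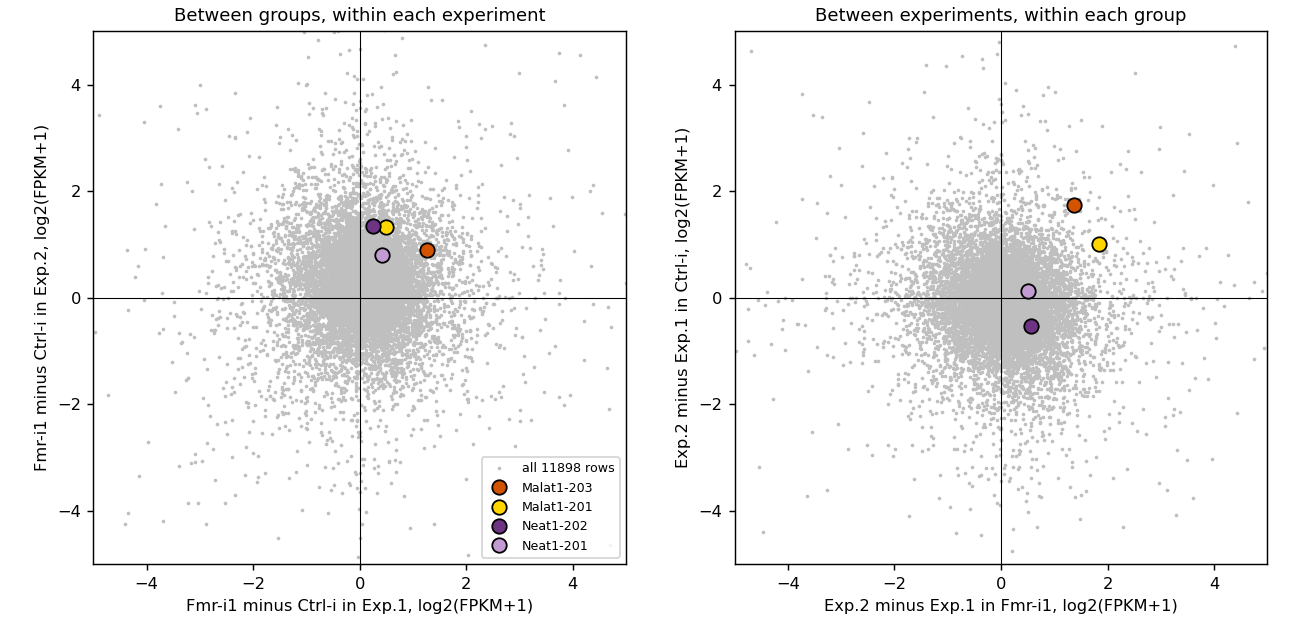
Differences in log2(FPKM+1) of all 11898 rows (grey) and of the 4 Malat1 and Neat1 rows (colours), with Fmr-i1 minus Ctrl-i in Exp.1 and Exp.2 on the left and Exp.2 minus Exp.1 in Fmr-i1 and Ctrl-i on the right. Axes end at 5, which leaves 27 rows outside the left panel and 19 outside the right. All 4 rows lie above 0 in both experiments on the left, and on the right only the Malat1 rows of the 4 lie far above 0 on both axes.

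Other lncRNAs known to be nuclear had fold changes on both sides of 0. Of 19 listed, 8 had rows, 7 were fitted and 0 passed the test. There were 4 positive and 3 negative fold changes, beside 65.1% positive over all gene sums (6380 of 9804). The list had a median log2 fold change of 0.03, against 0.16 for all gene sums. After median scaling this median was -0.08, and it ran from -0.23 without the Ctrl-i library of Exp.2 to 0.30 without the Fmr-i1 library of Exp.2. The list summed to 39.2 and 38.9 FPKM with Fmr-i1, against 55.9 and 24.6 with Ctrl-i. Tug1, a lncRNA found in nucleus and cytoplasm, had 8.32 and 15.6 FPKM with Fmr-i1, against 13.6 and 10.0 with Ctrl-i. Sox2ot, whose gene overlaps Sox2, had 3.60 and 11.1 FPKM with Fmr-i1, against 12.5 and 0.01 with Ctrl-i. Both overlapped between the groups, and Sox2ot was nearly missing from a single Ctrl-i library. Pantr1, a lncRNA of neural progenitors, had 15.9 and 4.52 FPKM with Fmr-i1, against 20.5 and 5.71 with Ctrl-i, and was thus lower in Exp.2 in both groups, opposite to Malat1. Peg13, an imprinted lncRNA, had 6.87 and 2.99 FPKM with Fmr-i1, against 3.30 and 4.17 with Ctrl-i.

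Exported lncRNAs and hosts of small nucleolar RNAs (snoRNAs) offer a contrast, since their spliced RNAs reach the cytoplasm. Of 21 listed, 8 had rows and 0 passed, with 2 positive and 6 negative fold changes, beside 65.1% positive over all gene sums. Their median was -0.24. Without the Ctrl-i library of Exp.1 the median turned to 0.27, and without the Fmr-i1 library of Exp.1 to 0.11. Their sum was 250 and 284 FPKM with Fmr-i1, against 354 and 201 with Ctrl-i. Gas5, a snoRNA host, had 108 and 114 FPKM with Fmr-i1, against 146 and 89.0 with Ctrl-i, a level close to that of Malat1 and Neat1. Groups were apart upwards in 2 and downwards in 1, beside 27.2% and 9.99% of all gene sums. Snhg6 had 53.0 and 48.8 FPKM with Fmr-i1, against 46.2 and 27.1 with Ctrl-i, and its groups were apart. So were those of Snhg20, named here after it was seen, with 15.9 and 23.8 FPKM with Fmr-i1, against 9.40 and 8.31 with Ctrl-i. Its log2 fold change was 1.06 (SE 0.41). Snhg8 and Zfas1, which overlapped, had log2 fold changes of -0.21 (SE 0.45) and -0.44 (SE 0.41).

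By annotated class and without the Malat1, Neat1 and Kcnq1ot1 rows, 142 lincRNA rows were fitted. Their median log2 fold change was 0.14, which was -0.01 after median scaling. Of these rows 58.5% were positive, beside 63.3% of all rows. The 94 antisense rows had a median of 0.03, which turned to -0.16 after median scaling. Rows of retained-intron transcripts, a class in which incompletely spliced nuclear RNA would be counted, took 1.14% and 1.38% of FPKM in Fmr-i1 and 1.15% and 1.01% in Ctrl-i. Their median log2 fold change was 0.15 over 355 rows, close to the 0.17 of 10295 protein-coding rows. It was 0.0061 after median scaling and -0.041 without the Ctrl-i library of Exp.2, and 0 rows of these classes were called.

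Proteins of the bodies that Malat1 and Neat1 occupy were measured as mRNAs, which are made in the nucleus and translated outside it. Of 20 genes for paraspeckle proteins, 18 were fitted and 0 passed, 14 positive and 4 negative, beside 65.1% positive over all gene sums. Their median log2 fold change was 0.26. After median scaling the median was 0.08, and without the Ctrl-i library of Exp.2 it was 0.12. Their groups were apart upwards in 5 and downwards in 2, beside 27.2% and 9.99% of all gene sums. Hnrnpk, an RNA-binding protein needed for paraspeckles in human cells, had 262 and 205 FPKM with Fmr-i1, against 192 and 188 with Ctrl-i. Hnrnpa1 had 154 and 151 FPKM with Fmr-i1, against 136 and 120 with Ctrl-i. The groups of both were apart, whereas those of Tardbp overlapped, with a log2 fold change of 0.45 (SE 0.34).

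Of 19 genes for nuclear speckle proteins, 17 were fitted and 0 passed, 12 positive and 5 negative, beside 65.1% positive over all gene sums. Their median of 0.24 became 0.05 after median scaling. The groups were apart upwards in 7 and downwards in 2, beside the same 27.2% and 9.99% over all gene sums. Srsf5, a splicing factor, had 168 and 174 FPKM with Fmr-i1, against 123 and 145 with Ctrl-i. Srsf2, another splicing factor of this family, had 61.1 and 66.4 FPKM with Fmr-i1, against 57.6 and 55.6 with Ctrl-i. Groups were apart in both, by less than in Malat1 within either experiment. The list also held larger values, named here after they were seen, with Son at 41.7 and 47.5 FPKM with Fmr-i1, against 31.0 and 15.2 with Ctrl-i, and Srsf1 at 1.05 and 0.17 FPKM with Fmr-i1, against 8.09 and 10.7 with Ctrl-i. Srsf3 and Rnps1 overlapped, with log2 fold changes of -0.08 (SE 0.33) and 0.20 (SE 0.33).

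Factors that form the Malat1 and Neat1 3' ends include the subunits of RNase P and the cleavage factors that act at the internal Neat1 site. Of 15 listed, 11 were fitted and 0 passed, 9 positive and 2 negative, beside 65.1% positive over all gene sums. The median of 0.17 was close to the 0.16 of all gene sums and became -0.01 after median scaling. Nudt21, a subunit of cleavage factor I that promotes the short Neat1 form in human cells, had 24.5 and 26.7 FPKM with Fmr-i1, against 25.6 and 19.9 with Ctrl-i. Mettl16, which binds the Malat1 triple helix in human cells, had 14.9 and 10.2 FPKM with Fmr-i1, against 14.2 and 19.7 with Ctrl-i. Both overlapped, as did the RNase P subunits Pop4 and Pop7, with log2 fold changes of 0.39 (SE 0.47) and 0.02 (SE 0.40).

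Genes of the nuclear envelope and lamina had a median log2 fold change of 0.50, which was 0.32 after median scaling and 0.27 without the Ctrl-i library of Exp.2. Of 11 listed, 8 were fitted and 0 passed, with 7 positive and 1 negative, beside 65.1% positive over all gene sums. Groups were apart upwards in 4 and downwards in 0, and over all gene sums 27.2% were apart upwards and 9.99% downwards. Lmna, which encodes lamins A and C, had 44.2 and 39.4 FPKM with Fmr-i1, against 38.3 and 24.2 with Ctrl-i. Tmpo, the gene of a lamina-associated protein, had 21.9 and 25.1 FPKM with Fmr-i1, against 19.1 and 12.1 with Ctrl-i. Sun1, named here after it was seen, had 8.13 and 11.0 FPKM with Fmr-i1, against 1.72 and 2.79 with Ctrl-i, a log2 fold change of 1.71 (SE 0.47). Emd, which encodes emerin, overlapped between the groups, with 44.0 and 29.5 FPKM with Fmr-i1, against 38.8 and 57.8 with Ctrl-i. These are mRNA levels and not a measure of nuclear envelope in the preparations.

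**Figure D4:**
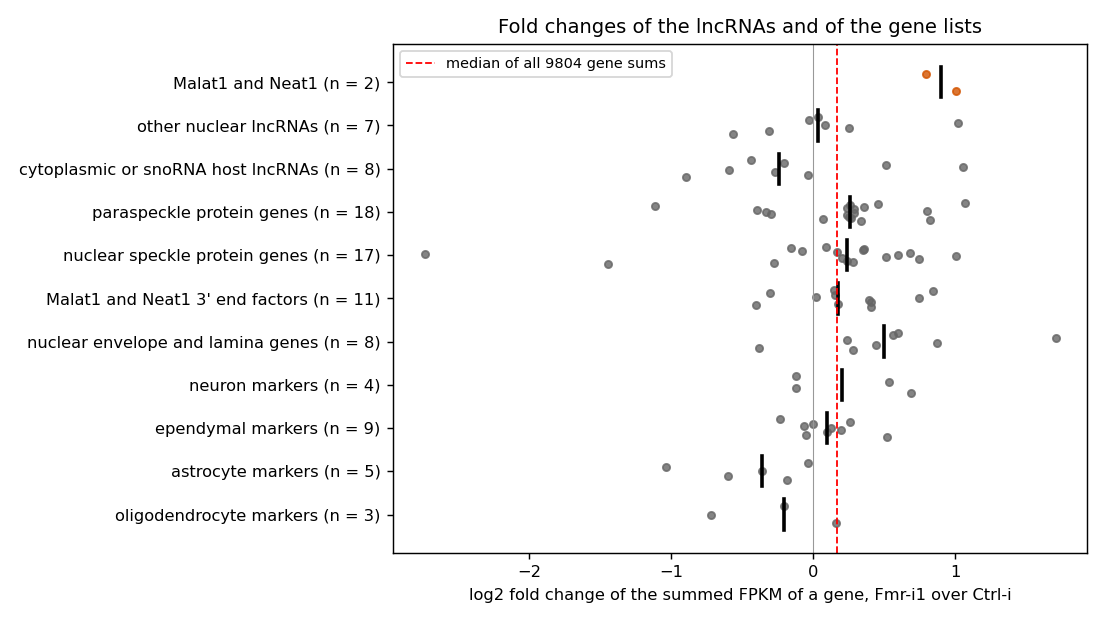
Log2 fold change of the summed FPKM of each gene, Fmr-i1 over Ctrl-i, for Malat1 and Neat1 (orange) and for the genes of each list (grey), with the list median as a black bar and the median of all 9804 gene sums as a dashed line. Malat1 (1.01) and Neat1 (0.79) lie right of the dashed line, the nuclear lncRNA list lies on both sides of it with a median of 0.03, and no gene passed the test. Single genes of the grey lists lie as far right or farther (Sox2ot 1.01, Sun1 1.71), and others far left (Srsf1 -2.74).

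The rows most like Malat1 and Neat1 were taken by the root mean square difference of their centred log2(FPKM+1) over the 4 libraries, among 8387 rows that averaged at least 5 FPKM. Closest to the Malat1 sum was the pseudogene Gm14292 (difference 0.14), with 4.59 and 20.6 FPKM with Fmr-i1, against 2.45 and 8.65 with Ctrl-i, followed by Akap2, Myh14, Slc24a4 and Ttc9c. Closest to the Neat1 sum was Myef2 (difference 0.05), with 12.6 and 17.5 FPKM with Fmr-i1, against 10.1 and 6.98 with Ctrl-i, followed by Zc2hc1a, Clasp1, Rasa1 and Smc4. With 4 libraries and this many rows, some close matches are found for any profile. None of these 10 rows was a lncRNA, but lncRNA genes were only 338 of the 10213 gene symbols, so nothing is read from that.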

How the data were processed

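RNA of purified multicilia was sequenced in 2 Fmr-i1 and 2 Ctrl-i libraries, grouped by their labels. The authors deposited FPKM per Ensembl transcript, 1 column a library, on GRCm38/mm10. Cuffdiff stands in the paper's methods, HISAT2 2.1.0 with featureCounts 1.5.3 in the submitters' processing notes, and the sources used here do not settle which of them gave the table. Depth per library is unknown. Rows were matched to GENCODE M21 by transcript (12483 of 12515), which also gave lengths and sequences, since the listed length equalled the genomic span in 90.3% of rows. In total 25 symbols turned into dates were restored.

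From the deposited FPKM, log2(FPKM+1) values with a mean of at least 1 FPKM were fitted with limma 3.58.1 (R 4.3.3). The experiment was a block, with a variance trend and Benjamini-Hochberg adjustment at 0.05. The fit was tested on simulated data, where it called 18% of rows with a log2 change of 1 (9 of 50). With a change of 2 it called 90% (45 of 50). A count of 0 called thus does not show that changes of about 1 are absent. Gene lists were described by counts and medians of summed FPKM. Genes named are the lncRNAs, Fmr1, up to 4 genes a list by highest mean FPKM, and the 5 rows most like Malat1 or Neat1. A gene that this rule names is not reported here. The leading lncRNAs, the neighbours Pola2 and Mrpl49, and Snhg20, Son, Srsf1 and Sun1 were named after their values were seen. The lncRNAs and lists were chosen with earlier results of these data known. Alternatives were other pseudocounts, filters and scalings, gene sums, no block, no trend and each library left out.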

Additional observations from a re-analysis of the deposited data

How the results depend on the processing

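The numbers of the experiments are shared by the groups, but deviations of libraries of 1 experiment had a correlation of -0.08. Without the replicate block 3 rows were called, against 0 with it, and under the 13 other alternatives 0 were called. The log2 ratio of the summed FPKM of Malat1, Neat1 and Kcnq1ot1, 0.84 as reported, ranged from 0.31 to 1.38 when each library was left out in turn. For rows and gene sums, leaving out a library also drops the block from the fit, which then takes the lone library to vary like the other group. The log2 fold change of Malat1-201, 0.91 as reported, ranged from -0.013 without Fmr-i1 replicate 2 to 1.83 without Fmr-i1 replicate 1, which leave only the lower or only the higher library of that group. Over all alternatives the Malat1 sum ranged from 0.21 to 1.80 and the Neat1 sum from 0.51 to 1.08. With a minimum of 5 FPKM, Neat1-201 could not be fitted. Depth is unknown for every library, so no counting error can be set beside the low FPKM of Kcnq1ot1 and Neat1-201.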
